A study of Caenorhabditis elegans with 16 samples.

Results

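Of 29131 accessible regions counted in *Caenorhabditis elegans* L1 larvae, 376 lost ATAC-seq signal both when RPOA-2 and when RRB-1 was depleted. They were chosen by their measured values: a mean of at least 20 CPM (the reads of a region scaled to a common library total) over all 16 libraries, and a log2 ratio of group means, depleted over undepleted, of -0.2 or lower in both pairs of strains. These 376 regions, called closed regions here, were 2.61% of the 14433 regions that reached 20 CPM. The same rule with a threshold of 0.2 in the other direction gave 500 opened regions (3.46%). The lowest ratios belonged to a region at R02E4.3. The other regions among the 12 lowest were nearest to the microRNA genes lin-4, mir-48 and mir-241, the cuticle collagen genes col-10 and col-145, the zinc finger gene znf-782, the core histone gene his-59, nlp-33, C02B4.3 and F27D9.12.

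RPOA-2 is a core subunit of RNA polymerase I, the enzyme that transcribes ribosomal RNA, and RRB-1 is the labels' name for the protein that the study calls GRWD-1, a chaperone for assembly of the large ribosomal subunit. ATAC-seq uses a transposase that inserts adapters where DNA is not wrapped in nucleosomes. More reads of the same region, at a common library total, are therefore read as more accessibility. L1 larvae start post-embryonic development by a timed programme. In it, the microRNAs lin-4 and the let-7 family step down regulators of early cell fates, and the epidermis builds a new collagen cuticle at every molt under oscillating gene expression.

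The 4 strains carried either rpoa-2::degron or rrb-1::degron, alone or with eft-3p::tir-1. The eft-3 promoter expresses TIR1, the plant F-box protein that marks degron-tagged proteins for destruction when auxin is present, throughout the animal. All 4 groups received 1 mM auxin and developed at 23 °C, and the groups without TIR1 are called undepleted. Larvae with TIR1 were collected after 24 h and larvae without it after 18 h, to allow for their slower growth. Depletion, the transgene, the strain and the longer growth therefore cannot be told apart. Each group had 4 libraries, made from splits of 1 batch of whole larvae, so p-values measure the spread between preparations and not between cultures. In whole animals, fewer cells of a type and less accessible DNA per cell cannot be told apart. The libraries held 2337415 to 13010378 counted reads, and no 2 libraries of a strain agreed within counting noise.

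The log2 ratios that chose the closed regions had a median of -0.28 in the RPOA-2 pair (lowest -1.14) and -0.29 in the RRB-1 pair (lowest -1.24). The median over all regions of 20 CPM or more was 0.00 in both pairs. Most closed regions were near the threshold: 100 of the 376 had both ratios at -0.3 or lower, 43 at -0.4 or lower, 20 at -0.5 or lower and 4 at -0.7 or lower. Just inside it were regions near F15D3.6 (-0.26 and -0.20 in the RPOA-2 and RRB-1 pairs), F14B4.1 (-0.20 and -0.22) and snf-5 (-0.25 and -0.20). Just outside were regions near miz-1 (-0.1999 and -0.44), tub-2 (-0.1999 and -0.22) and acp-5 (-0.1994 and -0.33), so the edge of the group separates regions with nearly equal values.

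**Figure D1:**
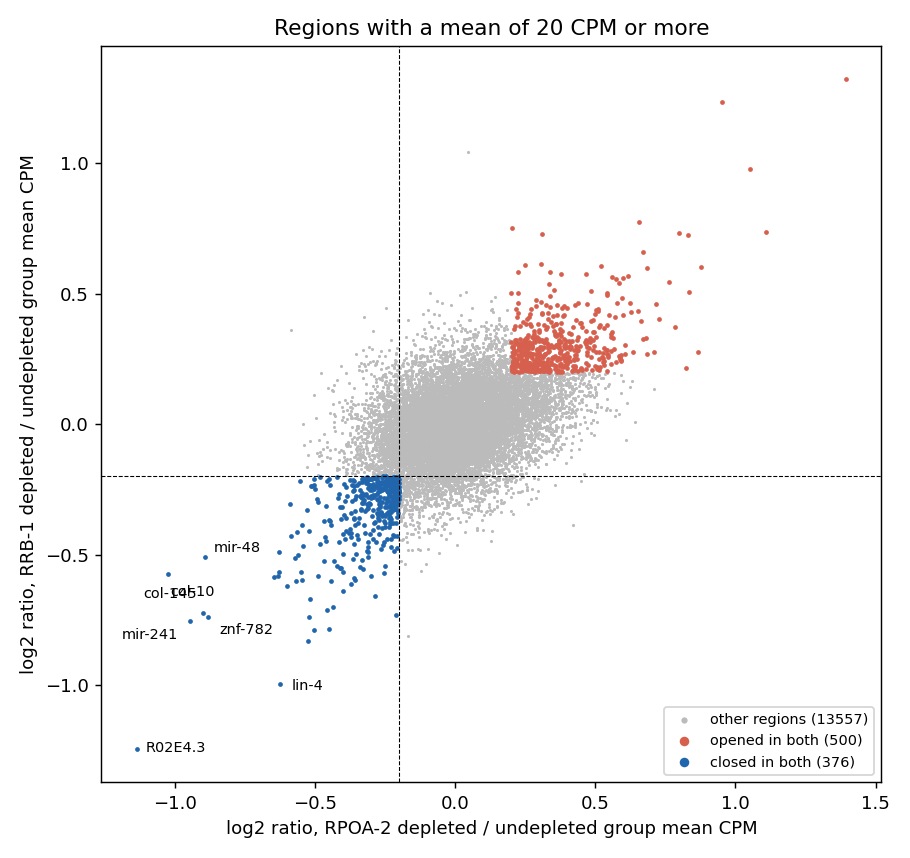
Each point is 1 of the 14433 regions with a mean of 20 CPM or more. The axes give the log2 ratio of group mean CPM, depleted over undepleted, for RPOA-2 (horizontal) and RRB-1 (vertical), and dashed lines mark the threshold of -0.2. The 376 closed regions fill the lower left corner by construction. R02E4.3, at -1.14 and -1.24, lies apart from the rest, and the 7 labelled regions have the lowest means of the 2 ratios.

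The closed regions took 22758 to 24802 CPM in sum in the libraries of undepleted rpoa-2::degron larvae, with a mean of 24043 ± 952.51 (SD, n = 4). In the depleted RPOA-2 libraries the sum was 18614 to 19857 CPM, with a mean of 19137 ± 536.34 (SD, n = 4). The undepleted rrb-1::degron libraries gave 22886 to 24244 CPM (mean 23831 ± 634.98, SD, n = 4) and the depleted RRB-1 libraries 17892 to 19604 CPM (mean 18876 ± 749.01, SD, n = 4). Depleted and undepleted groups did not overlap, while the 2 undepleted groups did, as did the 2 depleted groups. The rule compared the same groups, so the gap is a description of how far the chosen regions fell.

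Fitted region by region across all 29131 regions (edgeR quasi-likelihood test, Benjamini-Hochberg adjusted p under 0.05, with 2 factors of unwanted variation), 79 of the 376 closed regions were called lower in the RPOA-2 pair, against 0.487% of all regions. In the RRB-1 pair 124 were called lower, against 0.814% of all regions. Both calls were made for 58 closed regions (61 of all 29131) and neither for 231. All 4 depleted libraries lay below all 4 undepleted ones for 117 closed regions in the RPOA-2 pair (2.28% of all regions) and 146 in the RRB-1 pair (2.05% of all regions). This held in both pairs for 67 (99 of all regions). Called higher were 348 and 166 of all 29131 regions in the RPOA-2 and RRB-1 pairs, and 0 closed regions. The rule used these contrasts, and nothing is read from the counts. Without replicate 2 of depleted RPOA-2 larvae the calls numbered 14 and 41, of 17 and 59 over all regions. Without any factors they numbered 14 and 20, of 15 and 25 over all regions. The RPOA-2 calls numbered 52, 40 and 52 without undepleted rpoa-2::degron replicate 2, 3 or 4, of 90, 58 and 78 over all regions. The RRB-1 calls numbered 67 without undepleted and 58 without depleted rrb-1::degron replicate 2.

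A reading that the rule did not use came from applying it to 3 of the 4 replicate numbers and measuring the chosen regions in the 4 libraries left out. It chose 548, 332, 419 and 467 regions with replicate 1, 2, 3 or 4 left out, of which 314, 242, 248 and 258 belonged to the 376. In the libraries left out, their median log2 ratio in the RPOA-2 pair was -0.13, -0.26, -0.18 and -0.12. The medians of all regions that reached 20 CPM in the same 3 replicates were -0.01, -0.07, 0.02 and 0.05. In the RRB-1 pair the chosen regions had medians of -0.14, -0.29, -0.19 and -0.16, against 0.02, -0.03, -0.02 and 0.00. The median of the chosen regions was below the general median in all 8 readings. Between 66.4% and 88% of the chosen regions were below 0 in a reading, against 42.8% to 59.9% of the regions that reached 20 CPM. At the rule's own threshold of -0.2 or lower these shares were 38.1% to 61.1%, against 12.2% to 30.4%. Below 0 in both pairs left out were 296 of 548, 249 of 332, 262 of 419 and 234 of 467 chosen regions. The matching share over all regions is not given here. The libraries left out came from the same larval batches, so the readings repeat the preparation and not the growth of the animals.

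**Figure D2:**
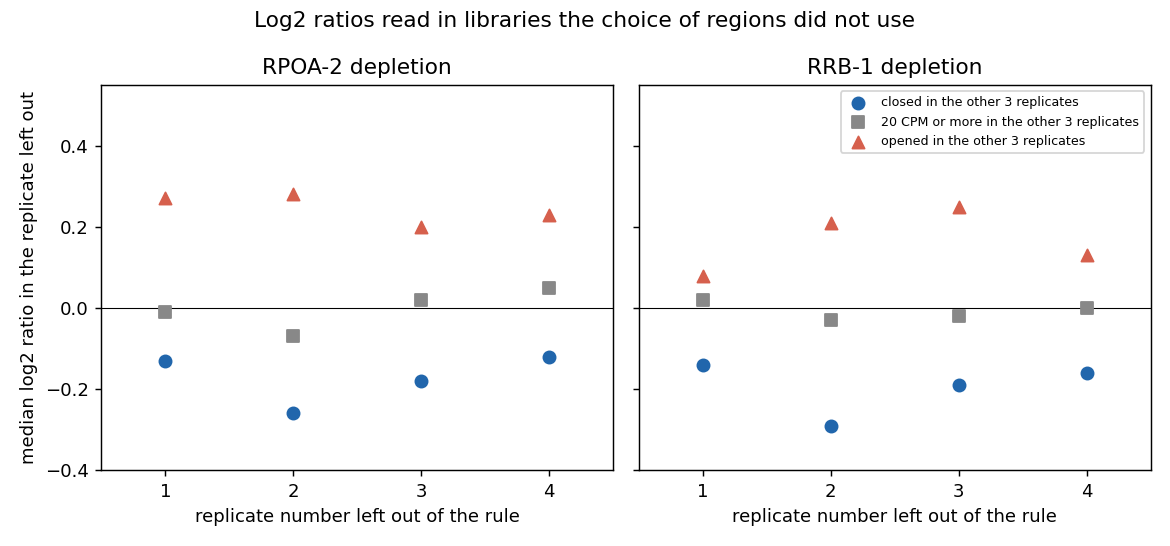
Median log2 ratio, depleted over undepleted, in the pair of libraries left out (vertical axis) for each replicate number left out of the rule (horizontal axis), for RPOA-2 (left) and RRB-1 (right). Circles are regions closed in the other 3 replicates, squares all regions with a mean of 20 CPM or more in them, and triangles regions opened in them. Circles lie between -0.29 and -0.12, below the squares in every column.

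Same-numbered libraries gave a view of single preparations, in the libraries that the rule used. The log2 ratio of the depleted to the undepleted library of the same number was below 0 in all 8 such pairs for 189 of the 376 closed regions (50.3%), in 7 for 137, in 6 for 44, in 5 for 5 and in 4 for 1. Of all regions of 20 CPM or more, 2.72% were below 0 in all 8 pairs and 6.94% in 7, and the choice of regions favours such counts. For 46 closed regions (12.2%), replicates 3 and 4 were higher than replicates 1 and 2 in both undepleted strains, against 4.41% of the regions of 20 CPM or more. The reverse order held for 11 closed regions (2.93%), against 3.98% of the regions of 20 CPM or more. A region with undepleted replicates 3 and 4 higher lay at a 5′ end of nurf-1 (II:14406213-14408095), which encodes a subunit of a nucleosome remodelling complex. It had 128, 147, 237 and 251 CPM in undepleted and 172, 189.8, 111 and 105 CPM in depleted rpoa-2::degron larvae, so the depleted libraries were higher in replicates 1 and 2 and lower in 3 and 4. The rrb-1::degron strains had 134, 136, 231 and 222 CPM undepleted and 129, 124, 111 and 100.4 CPM depleted. Regions of lin-42, mir-48, mir-241, znf-782, sqt-3, metr-1, tps-2, mthf-1, ahcy-1, pck-2, nlp-26, nhr-34, snf-5, C52E12.t3, C48C5.t3 and F54C9.12 also had higher values in undepleted replicates 3 and 4. The labels state that each processing batch held a replicate of every strain but do not tie batches to numbers, and the part of such batches in these regions was not tested.

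Contrasts between strains of equal TIR1 status were not compared by the rule, though it chose regions by the same 4 group means. Between undepleted strains 1 of all 29131 regions was called, so a count of 0 says little about the closed regions. Between the undepleted strains 0 of 376 closed regions were called (edgeR quasi-likelihood test, 9 at an unadjusted p under 0.05, 0 by DESeq2), against 0.00343% of all regions. The log2 differences, RPOA-2 strain minus RRB-1 strain, had a median of 0.01, with the central 90% between -0.14 and 0.15. Between the depleted strains 1 closed region was called (27 at an unadjusted p under 0.05, 3 by DESeq2), against 0.13% of all regions, and the central 90% lay between -0.14 and 0.23. The difference between both depletion effects was called for 0 closed regions (10 at an unadjusted p under 0.05, 0 by DESeq2), against 0.0103% of all regions. Both effects were bounded above by the rule, which limits how far they can differ. Over all 29131 regions, 1184, 2064 and 1690 had an unadjusted p under 0.05 in these contrasts, in the order given (edgeR quasi-likelihood test). DESeq2 called 1, 48 and 1 of all regions in them.

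The region called between the depleted strains was upstream of his-62, a core histone gene next to his-61 (IV:7485865-7486974, WBcel235 as for all coordinates here). Depleted RPOA-2 larvae had 99.5, 108, 105 and 99 CPM and depleted RRB-1 larvae 83, 82.8, 92.6 and 73.8 CPM, with no overlap. The log2 difference was 0.37 ± 0.08 (SE, n = 4 per group, adjusted p = 0.0287, edgeR quasi-likelihood test). Undepleted larvae had 99, 126, 138 and 127 CPM in the rpoa-2::degron strain and 116, 143, 117 and 118 CPM in the rrb-1::degron strain. The log2 difference between the undepleted strains was 0.08 ± 0.08 (SE, adjusted p = 0.9995). The difference between both depletion effects was not called for this region (0.29 ± 0.11, SE, adjusted p = 0.722). The call between the depleted strains was lost without any single one of undepleted rpoa-2::degron replicates 1, 3 and 4, depleted RPOA-2 replicates 2 and 3, undepleted rrb-1::degron replicates 1 and 3, and depleted RRB-1 replicates 2, 3 and 4. It was also lost without factors and with the replicate number as a block in place of the factors. With the block, 1 other closed region was called, of 15 over all regions.

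Heterochronic genes order the cell fates of successive larval stages. A list of 26 of them, compiled from textbook knowledge after the values had been seen, was nearest to 91 regions of 20 CPM or more. Of these, 24 (26.4%), at 16 genes, were closed in both depletions and 1 was opened, beside 2.61% closed and 3.46% opened over all regions. The median log2 ratio of the 91 regions was -0.14 in both pairs. Since the list was chosen after the values were seen, no test was made. Over all 140 regions of the list, 15 were called lower and 1 higher in the RPOA-2 pair and 22 lower and 0 higher in the RRB-1 pair, beside 0.487% and 0.814% of all regions called lower. Without factors 5 and 5 were called lower, of 15 and 25 over all regions. With a replicate block 10 and 13 were called lower, of 94 and 112 over all regions.

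Of the list, regions at the microRNA genes lin-4, mir-241 and mir-48 had the lowest mean log2 ratios. lin-4, the microRNA that represses lin-14 and lin-28 in early larvae, had a closed region (II:5901167-5902481) that overlaps its hairpin inside an intron of F59G1.4. Undepleted rpoa-2::degron larvae had 142, 166, 159.5 and 152 CPM there and depleted ones 105, 102, 97.1 and 99 CPM. Undepleted rrb-1::degron larvae had 165, 176, 166 and 144 CPM and depleted ones 90.3, 77.6, 82.3 and 75.6 CPM. No group of depleted libraries overlapped its undepleted one, and the log2 ratios were -0.62 and -0.997 in the RPOA-2 and RRB-1 pairs.

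The let-7 family microRNAs mir-48 and mir-241, which act with mir-84 to repress hbl-1 at the passage from the L2 to the L3 stage, lie close together on chromosome V. All 3 regions of 20 CPM or more between positions 14364438 and 14369002 were closed. The most distal one, upstream of mir-241 (V:14368208-14369002), had 67.7, 59.1, 78.9 and 69.8 CPM in undepleted and 44.2, 41.1, 28.7 and 29 CPM in depleted rpoa-2::degron larvae. In the rrb-1::degron strains it had 57.6, 58.8, 69.3 and 78.5 CPM undepleted and 43.4, 37.3, 39.2 and 36.5 CPM depleted. The groups did not overlap in either pair, and the log2 ratios were -0.95 and -0.76.

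The region overlapping the mir-241 hairpin (V:14366205-14367212) had 90, 113, 105 and 121 CPM in undepleted and 66.9, 82.4, 77.4 and 71.1 CPM in depleted rpoa-2::degron larvae. It had 111, 96.3, 122 and 110.5 CPM in undepleted and 61.6, 57.1, 64.1 and 64.3 CPM in depleted rrb-1::degron larvae. These groups were again separate, at log2 ratios of -0.52 and -0.83. The region at mir-48 (V:14364438-14364983) had 35, 39.9, 46.7 and 55.7 CPM in undepleted and 24.5, 21.8, 20.1 and 29 CPM in depleted rpoa-2::degron larvae (log2 ratio -0.89). In the RRB-1 pair its 27.6, 24.5, 39.8 and 48.8 CPM undepleted and 27.4, 18.5, 29.2 and 23.7 CPM depleted overlapped, at a log2 ratio of -0.51. Its fitted log2 fold changes of -0.73 and -0.39 became -0.39 and -0.05 without replicate 2 of depleted RPOA-2 larvae, and the second became -0.25 without replicate 4 of depleted RRB-1 larvae.

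let-7 itself, which directs the larval-to-adult switch, had 1 region of 20 CPM or more (X:14744337-14744874), and it was closed. Its values were 43.5, 53.8, 43 and 39.7 CPM in undepleted and 40.7, 37, 30.4 and 39.2 CPM in depleted rpoa-2::degron larvae, which overlapped (log2 ratio -0.29). In rrb-1::degron larvae 43.8, 44.5, 47.5 and 45.2 CPM without TIR1 stood apart from 35.1, 30.8, 27.9 and 20.8 CPM with TIR1 (log2 ratio -0.66). The remaining let-7 family member of the list, mir-84, had 2 regions of 20 CPM or more and neither was closed. Their log2 ratios ran from -0.17 to 0.30 in the RPOA-2 pair and from -0.34 to -0.06 in the RRB-1 pair.

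lin-42, the homologue of the circadian period genes that times the molts, had 4 closed regions among its 6 regions of 20 CPM or more. The highest of them in CPM (II:1235750-1238541) had 314, 314, 349.5 and 339.8 CPM in undepleted and 249, 259.9, 212 and 236 CPM in depleted rpoa-2::degron larvae. Its values in rrb-1::degron larvae were 301, 294, 290.2 and 311 CPM undepleted and 238, 224, 204 and 210.0 CPM depleted, again without overlap. The log2 ratios of that region were -0.46 and -0.45. The region over a coding exon beside it (II:1238783-1241019) fell further, with log2 ratios of -0.63 and -0.58. The 2 remaining regions of lin-42 in the group had log2 ratios of -0.56 and -0.50 (II:1244418-1244810) and -0.35 and -0.44 (II:1246571-1247517).

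kin-20, a casein kinase that partners LIN-42, had 2 closed regions of 5, and daf-12, the steroid hormone receptor of larval decisions, had 2 of 11. A closed region in kin-20 (X:15271143-15271739) had 40.5, 38, 39.5 and 37.8 CPM in undepleted and 24.5, 25.6, 24.8 and 28.8 CPM in depleted rpoa-2::degron larvae. It had 28, 32.6, 37.4 and 37.5 CPM in undepleted and 27.2, 21.9, 26.7 and 24.8 CPM in depleted rrb-1::degron larvae, and the log2 ratios were -0.59 and -0.43. The groups did not overlap in either pair.

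The transcription factor gene lin-29, which acts at the end of the pathway, and mab-10, whose protein is a cofactor of LIN-29, had 2 closed regions each, of 4 regions each. Single closed regions lay near lin-14, hbl-1, blmp-1, dre-1, din-1, alg-1 and puf-9. The one in lin-14 (X:11471065-11484192), a nuclear protein gene repressed by lin-4, was the longest of all closed regions at 13128 bp, and its ratios of -0.20 and -0.26 were close to the threshold. None of the regions of 20 CPM or more near lin-28, lin-41, lin-66, alg-2, ain-1, nhl-2 and apl-1 was closed, and lin-46 and daf-9 had no such region.

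**Figure D3:**
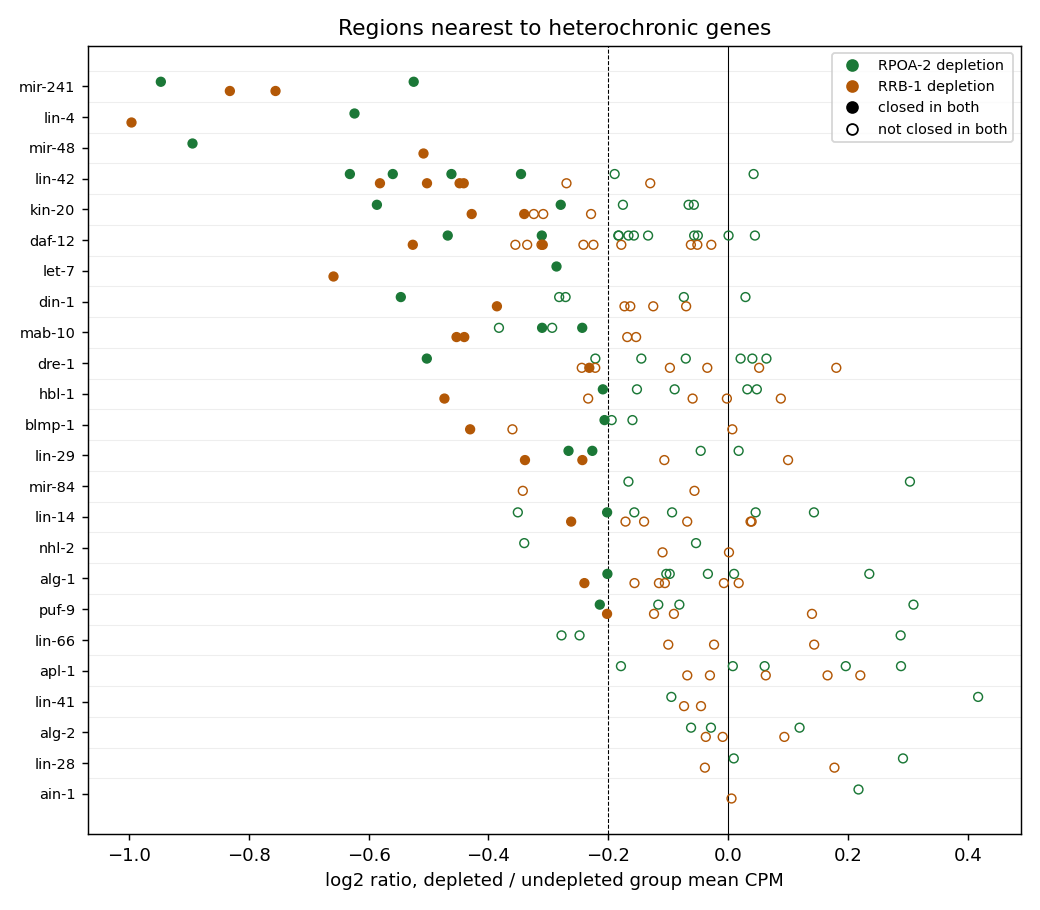
Log2 ratio of group mean CPM (horizontal axis) for the 91 regions of 20 CPM or more nearest to 24 heterochronic genes (rows), with RPOA-2 depletion in green above and RRB-1 depletion in orange below in each row. Filled points are the 24 closed regions, open points the others, and the dashed line is the threshold of -0.2. mir-241, lin-4 and mir-48 reach the lowest values, and regions of lin-28, lin-41 and ain-1 lie near or above 0.

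Cuticle collagens form the extracellular coat that the epidermis replaces at each molt. Of 181 regions of 20 CPM or more nearest to a collagen gene of the list, 29 (16%), at 25 genes, were closed and 1 was opened. Over the 246 collagen regions tested, 17 were called lower and 0 higher in the RPOA-2 pair, and 27 lower and 0 higher in the RRB-1 pair (edgeR quasi-likelihood test, adjusted over all regions), beside 0.487% and 0.814% of all regions called lower. Without factors 5 and 7 were called lower, of 15 and 25 over all regions. With a replicate block 16 and 18 were called lower, of 94 and 112 over all regions. The median log2 fold change of those 246 regions was -0.06 in both pairs, beside 0.00 and 0.01 over all regions, so most collagen regions lay close to the general median.

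The lowest collagen values came from a stretch of chromosome V that holds col-144, col-145 and col-10, where all 4 regions of 20 CPM or more between positions 9160360 and 9165767 were closed. The region at the 5′ end of col-10 (V:9164887-9165767) had 62.2, 66.3, 73 and 72.8 CPM in undepleted and 43.4, 32.6, 32.9 and 37.9 CPM in depleted rpoa-2::degron larvae. In the rrb-1::degron strains it had 70.3, 100.0, 66.7 and 51.4 CPM undepleted and 42.7, 38, 48.7 and 45.3 CPM depleted. Neither pair overlapped, and the log2 ratios were -0.90 and -0.72. The region upstream of col-145, which overlaps col-10 (V:9163869-9164412) had low values throughout, 23.6, 29.8, 23.1 and 28.2 CPM against 11.8, 9.91, 11.6 and 18.3 CPM for RPOA-2 (log2 ratio -1.02). For RRB-1 its 28.2, 38.9, 19 and 20 CPM undepleted overlapped 15.3, 14.7, 16.4 and 24.8 CPM depleted (log2 ratio -0.58). The fitted log2 fold change in that pair, -0.72, became -0.42 without undepleted rrb-1::degron replicate 2, and its call was lost there, without depleted RRB-1 replicate 2, with DESeq2 and without factors.

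Collagens whose mutants change body shape were among the closed regions: dpy-4, dpy-5, dpy-10, dpy-13, sqt-1, sqt-3, rol-6 and rol-8. At dpy-13 (IV:4235285-4237143), 157, 162, 192 and 179 CPM in undepleted rpoa-2::degron larvae compared with 124, 96.5, 121 and 105 CPM after depletion. In the RRB-1 pair 142, 158, 142 and 162 CPM compared with 103, 87.4, 105 and 113 CPM. The groups were separate in both pairs (log2 ratios -0.63 and -0.57). At sqt-3 (V:12352718-12354808) the log2 ratios were -0.57 and -0.60, with all depleted libraries between 89.8 and 128 CPM and all undepleted ones between 141 and 169.7 CPM.

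Cuticlin and apical matrix genes encode other parts of the coat and its precursor layer. Among their 66 regions of 20 CPM or more, 8 (12.1%) were closed and 0 opened, and 5 of the 8 were in a 6-region stretch of lipocalin-related lpr genes (X:11056968-11066509). The region at the 5′ end of lpr-3 (X:11056968-11057993) had 70.3, 88.6, 84.6 and 79.3 CPM in undepleted and 64, 62.6, 59.9 and 62.7 CPM in depleted rpoa-2::degron larvae. In rrb-1::degron larvae it had 75.6, 71.7, 77.4 and 79.2 CPM undepleted and 62.5, 57.1, 53.6 and 52.2 CPM depleted. Its groups did not overlap, at log2 ratios of -0.37 and -0.43. The region upstream of lpr-4 (X:11064815-11065381) fell further, with log2 ratios of -0.55 and -0.60, but its RPOA-2 groups overlapped.

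The other matrix genes with a closed region were noah-1, which encodes a zona pellucida domain protein (-0.31 and -0.31), the cuticlin gene cut-2 (-0.31 and -0.20) and the astacin protease gene nas-30 (-0.22 and -0.43). Over the 146 matrix regions tested, 2 were called lower and 0 higher in the RPOA-2 pair and 5 lower and 0 higher in the RRB-1 pair. Beside them, 0.487% and 0.814% of all regions were called lower, and the RPOA-2 count rests on 2 regions. Without factors 0 matrix regions were called in either pair, where 15 and 25 of all regions were called lower. Among 94 regions near hedgehog-related and patched-related genes, which also act in the epidermis and at molts, 5 (5.32%) were closed, including ptr-18 (-0.41 and -0.36), ptr-4 (-0.26 and -0.46) and grd-5 (-0.33 and -0.26), and 3 were opened. Of 179 such regions tested, 0 were called lower and 1 higher in the RPOA-2 pair and 1 lower and 2 higher in the RRB-1 pair. Over all 29131 regions, 0.487% and 0.814% were called lower and 348 and 166 higher in these pairs.

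Of 34 regions tested near 8 epidermal marker genes, 0 were called lower in the RPOA-2 pair and 1 in the RRB-1 pair. The shares over all regions were 0.487% and 0.814%. Among the 20 epidermal marker regions with 20 CPM or more, 2 were closed, both near lin-29, which is also a heterochronic gene. Summed over the list, marker regions had 1100 to 1190 CPM in undepleted and 1050 to 1140 CPM in depleted rpoa-2::degron libraries, and 1080 to 1130 CPM and 966 to 1100 CPM in the rrb-1::degron ones. Of the marker regions of intestine (2), body wall muscle (21), pharynx (11), neurons (15) and germ line (5) that reached 20 CPM, 0 were closed, and 4 neuronal and 1 pharyngeal ones were opened. By overlap with the gene in place of the nearest 5′ end, 1 of 10 neuronal regions was closed. The part of tissue makeup in the collagen and matrix regions was not tested.

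The region with the lowest ratios of all lay at the 5′ end of R02E4.3, a protein-coding gene (X:4101958-4102559). Undepleted rpoa-2::degron larvae had 36.1, 40.1, 50.2 and 50.4 CPM and depleted ones 19.5, 16.1, 24.4 and 20.5 CPM. Undepleted rrb-1::degron larvae had 33.9, 49, 42 and 40.1 CPM and depleted ones 17.8, 15.8, 16.7 and 19.4 CPM. Every depleted library was under 25 CPM and every undepleted one over 33 CPM, for log2 ratios of -1.14 and -1.24.

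znf-782 had the most closed regions of any gene. All 5 regions of 20 CPM or more between positions 1062643 and 1070182 of chromosome IV were closed, with a median log2 ratio of -0.43 in the RPOA-2 pair and -0.55 in the RRB-1 pair. The region at its 5′ end (IV:1067230-1067910) had 72.3, 69.9, 85.6 and 108 CPM in undepleted and 43.6, 45, 34.2 and 59.3 CPM in depleted rpoa-2::degron larvae. In rrb-1::degron larvae it had 80.5, 78.8, 72.6 and 69.8 CPM undepleted and 47.7, 47.5, 43.3 and 42 CPM depleted. The groups were separate in both pairs, at log2 ratios of -0.88 and -0.74. The next lowest of the 5, an intronic region (IV:1063981-1065082) had ratios of -0.60 and -0.62.

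Regions far from any 5′ end of the gene types considered here (protein-coding, tRNA, snoRNA, snRNA, rRNA and miRNA) also stood among the 12 lowest. The region 4289 bp downstream of the nearest 5′ end, that of C02B4.3 (X:12655112-12656005), had 76.5, 76.8, 91.8 and 66 CPM in undepleted and 53.5, 49.8, 53.9 and 62.2 CPM in depleted rpoa-2::degron larvae. For RRB-1, 65.9, 50.6, 97.8 and 93.1 CPM undepleted overlapped 54.2, 40.3, 45.4 and 38 CPM depleted. The log2 ratios were -0.50 and -0.79. The region 5461 bp from the 5′ end of F27D9.12 (X:7650968-7652061) had 86.8, 93, 94.5 and 97.6 CPM undepleted and 65.1, 59.7, 71.5 and 62.9 CPM depleted for RPOA-2, and 102, 98.8, 92.3 and 77.9 CPM against 63, 47.5, 55.8 and 55.9 CPM for RRB-1. These groups were separate, at -0.52 and -0.74.

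nlp-33, an epidermal antimicrobial peptide gene, had a closed region over its coding exon (V:11146909-11148182). Its values were 69.3, 92.5, 86.5 and 99.5 CPM in undepleted and 57.4, 51.5, 56.5 and 56.6 CPM in depleted rpoa-2::degron larvae. In the RRB-1 pair they were 79.8, 106, 92.5 and 78.2 CPM against 57.5, 58.2, 64.3 and 57.7 CPM. Neither pair overlapped, and the log2 ratios were -0.65 and -0.59. The neuropeptide and insulin-like list as a whole had 3 closed regions of 64 (4.69%), the others near nlp-26 and nlp-24.

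**Figure D4:**
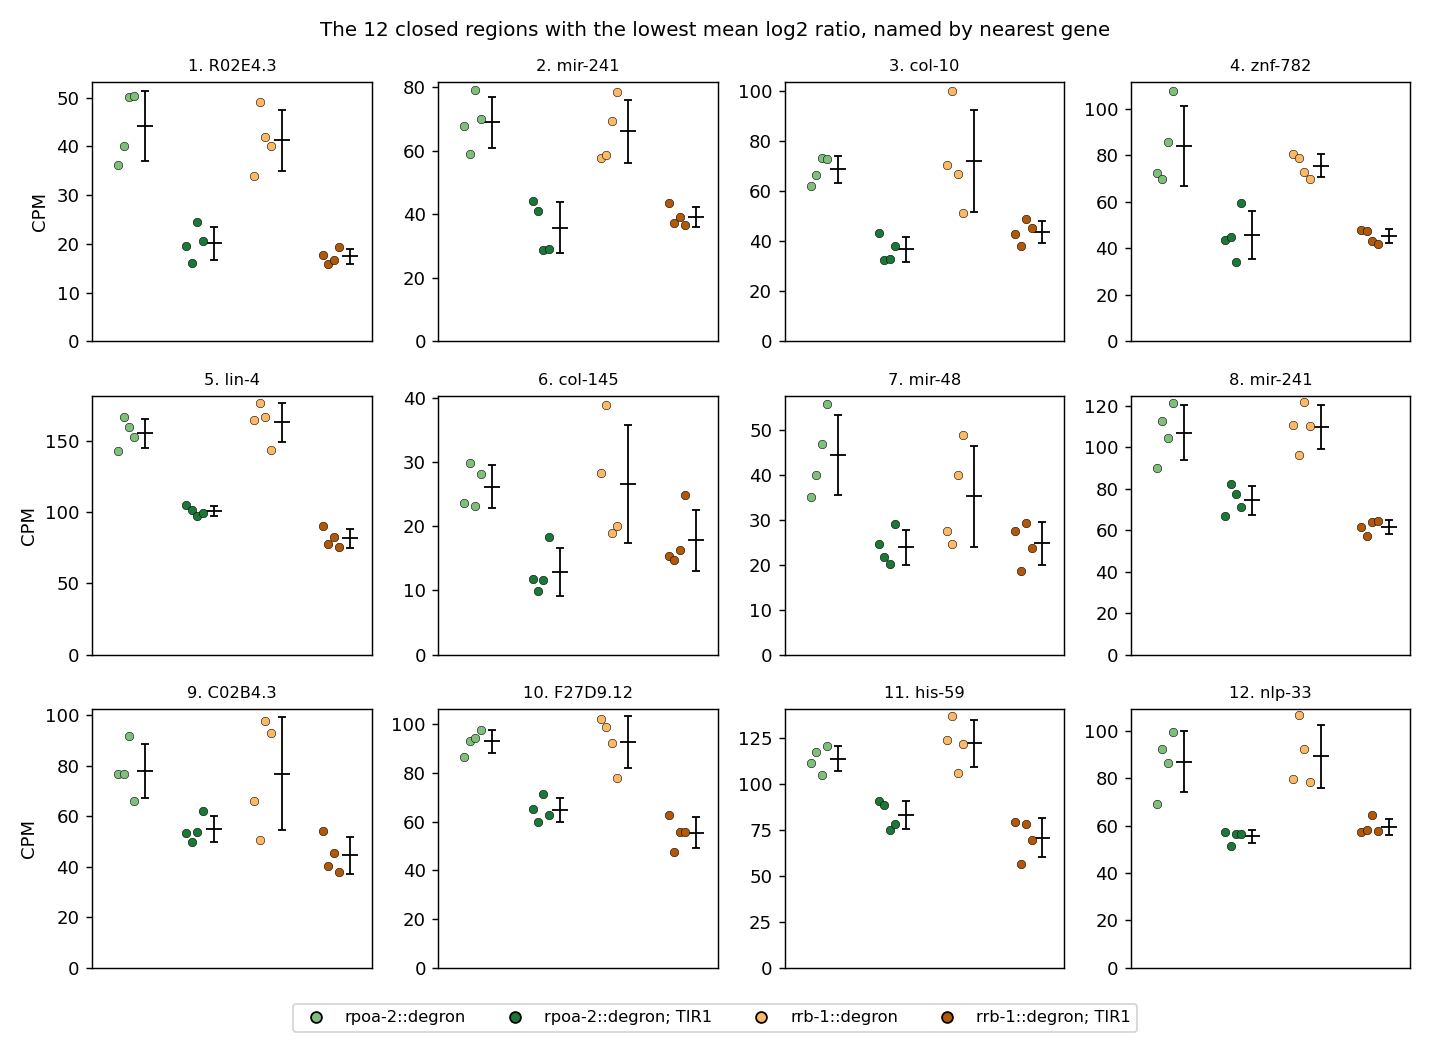
CPM (vertical axes, from 0) in every library for the 12 closed regions with the lowest mean of the 2 log2 ratios, named by the gene with the nearest 5′ end. Points are single libraries in replicate order, and bars are mean ± SD (n = 4) for each strain. Depleted strains lie lower than undepleted ones in each panel, and the RRB-1 groups overlap for col-145, mir-48 and C02B4.3.

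Some closed regions were nearest to genes of metabolism, and were picked out here after their values were seen. tps-2, a trehalose phosphate synthase gene, had 4 closed regions, the lowest at -0.37 and -0.52 (II:14611321-14611743). mthf-1 and metr-1, which encode the methylenetetrahydrofolate reductase and the methionine synthase of the folate and methionine cycles, had 3 and 2. The lowest of mthf-1 was at -0.47 and -0.37 (II:7777583-7778028). A region over ahcy-1, the S-adenosylhomocysteine hydrolase gene of the same cycle (I:6836380-6838119), had 144, 157, 165 and 165 CPM in undepleted and 133, 115, 113 and 104.1 CPM in depleted rpoa-2::degron larvae, without overlap. In rrb-1::degron larvae it had 138, 124, 165 and 143 CPM undepleted and 116, 97.5, 108 and 115 CPM depleted, again without overlap (log2 ratios -0.44 and -0.39). pck-2, a phosphoenolpyruvate carboxykinase gene, had a closed region of 3303 bp (-0.42 and -0.45). Of the 68 regions near genes of the fat metabolism list 1 was closed, near acs-22.

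Histone genes had 4 closed regions of 18 (22.2%) and 0 opened. The region between his-59 and his-60 (IV:7487516-7488845) had 112, 117, 105 and 120.5 CPM in undepleted and 90.6, 88.5, 74.9 and 78.3 CPM in depleted rpoa-2::degron larvae. In rrb-1::degron larvae it had 124, 137, 106 and 122 CPM undepleted and 79.5, 56.4, 78 and 69.4 CPM depleted. Its groups were separate in both pairs (log2 ratios -0.45 and -0.78). The others were the his-62 region given above, a region between his-5 and his-6 (-0.37 and -0.61) and one over the linker histone gene his-24 (-0.22 and -0.20). Over 22 histone regions tested, 2 were called lower in the RPOA-2 pair and 9 in the RRB-1 pair, and 0 were called higher, beside 0.487% and 0.814% of all regions called lower. Without factors the histone regions called lower numbered 0 and 2, of 15 and 25 over all regions. The difference between both effects was called for 0 of the closed ones. Core histone genes are repeated in near-identical copies, and only 16 of the list's 72 genes were nearest to a region, so reads between copies are uncertain.

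Among genes for untranslated RNAs, tRNA genes were nearest to 18 closed regions, 3.61% of their 498 regions beside 2.61% of all, with C52E12.t3 (-0.46 and -0.71), C48C5.t3 (-0.55 and -0.57) and C03A3.t1 (-0.53 and -0.33) lowest. Of 808 tRNA regions tested, 7 were called lower and 5 higher in the RPOA-2 pair and 11 lower and 5 higher in the RRB-1 pair, beside 0.487% and 0.814% of all regions called lower. Over all 29131 regions, 348 were called higher in the RPOA-2 pair and 166 in the RRB-1 pair. Without factors 0 and 1 tRNA regions were called lower, of 15 and 25 over all regions. With a replicate block 3 and 5 were called lower, of 94 and 112 over all regions. microRNA genes were nearest to 9 closed (5.33%) and 6 opened (3.55%) of their 169 regions. Of 259 tested, 6 were called lower and 7 higher in the RPOA-2 pair and 14 lower and 3 higher in the RRB-1 pair. The figures for all regions are those given for tRNA genes. Without factors 3 and 4 microRNA regions were called lower and 0 higher, where 15 and 25 of all regions were called lower. Besides those above the closed ones were mir-235, which holds blast cells quiescent in unfed L1 larvae (-0.36 and -0.60), mir-60 (-0.33 and -0.52), mir-791 (-0.30 and -0.58) and mir-80 (-0.27 and -0.37). snoRNA genes, whose products guide rRNA modification, had 4 of 282 (1.42%), with T25C12.12 (-0.40 and -0.23), F18A1.11 (-0.27 and -0.29) and F54C9.12 (-0.20 and -0.26) lowest, and snRNA genes had 0 of 56. Another 12 snoRNA regions (4.26%) were opened, and of 423 tested 1 was called lower and 11 higher in the RPOA-2 pair and 5 lower and 5 higher in the RRB-1 pair. Of all 29131 regions, 0.487% and 0.814% were called lower and 348 and 166 regions higher in these pairs.

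A closed region in the ribosomal RNA gene cluster, the template of RNA polymerase I, lay nearest to rrn-1.1 and over an rrn-3.1 transcript (I:15068200-15068595). It had 94.2, 131, 93.7 and 87 CPM in undepleted and 73.4, 87.6, 83.8 and 59.1 CPM in depleted rpoa-2::degron larvae, with a small overlap. In rrb-1::degron larvae it had 138, 172, 95.1 and 116 CPM undepleted and 91.9, 134, 94.6 and 107 CPM depleted, which overlapped widely. The log2 ratios were -0.42 and -0.28. Of 7 rRNA regions of 20 CPM or more this was the only one closed, and 0 were closed without replicate 1. Summed rRNA regions had 39200 to 45500 CPM in undepleted and 27200 to 34700 CPM in depleted rpoa-2::degron libraries, without overlap, and 38500 to 48200 and 36400 to 50400 CPM in the rrb-1::degron ones, which overlapped. Of 10 rRNA regions tested, 3 were called lower in the RPOA-2 pair and 1 in the RRB-1 pair, beside 0.487% and 0.814% of all regions. Without factors 0 rRNA regions were called in either pair, where 15 and 25 of all regions were called lower. Since rRNA genes are tandem repeats, reads of these regions cannot be placed in 1 copy.

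Other lists had few or no closed regions. Of the regions of 20 CPM or more, 0 of 63 near cytosolic ribosomal protein genes, 0 of 39 near chaperones, 0 of 45 near homeobox ceh genes and 0 of 34 near gut proteases and yolk genes were closed. By overlap with the gene, 3 of 39 chaperone regions (7.69%) were closed. Nuclear hormone receptors had 3 of 240 (nhr-34, nhr-137 and nhr-88), C-type lectins 4 of 143 (clec-139, clec-182 and clec-62 lowest), GATA factors 1 of 27 (egl-27) and muscle structure genes 1 of 69 (unc-52). Detoxification genes had 1 closed region of 56, near ugt-50, and 11 opened ones (19.6%). In all, 92 closed regions were nearest to a gene of these lists other than the heterochronic one, and 284 were not. The 376 regions were nearest to 327 different genes.

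**Figure D5:**
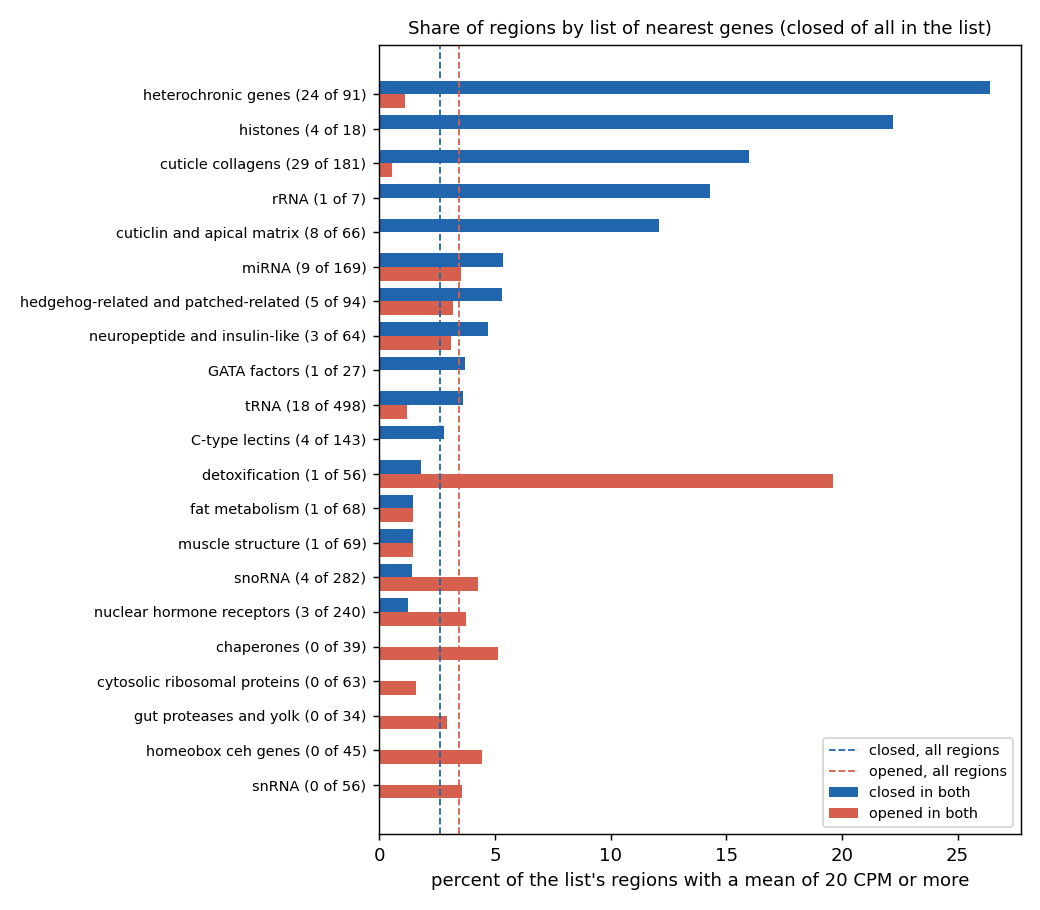
Percent of a list's regions with a mean of 20 CPM or more that were closed (blue) or opened (red) in both depletions, by list of nearest genes, with the number closed and the number of regions in parentheses. Dashed lines are the shares over all 14433 regions, 2.61% closed and 3.46% opened. Heterochronic genes, histones and cuticle collagens have the highest closed shares and detoxification genes the highest opened share (19.6%).

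Position and length were not part of the rule. With the extent of protein-coding genes on every chromosome cut into 3 equal spans, the central span held 173 of 376 closed regions (46%), beside 32.8% of all regions of 20 CPM or more and 32% of the opened regions. On chromosome V this share was 65% of 60 closed regions beside 36.1% of all. Chromosome II held 21.8% of the closed regions beside 16.3% of all, and the X chromosome 23.1% beside 20.2%. No test was made, since neighbouring regions are not independent.

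The middle of 38.6% of the closed regions lay in a coding exon, beside 35.6% of all regions of 20 CPM or more and 8.4% of the opened ones. Another 22.3% were in introns and 33.2% outside protein-coding genes, where 64.8% of the opened regions lay. The middle was within 500 bp of a 5′ end for 35.6% of the closed, 31.5% of all and 37.8% of the opened regions. Closed regions had a median length of 650.5 bp (all 624 bp, opened 588 bp), and their upper quartile was 987 bp (all 887 bp, opened 771.5 bp). Their read density had a median of 55.2 CPM per kb beside 56.1 in all and 69.3 in opened regions.

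Closed regions were often neighbours. Where the nearest other region of 20 CPM or more on the chromosome was closed, 80 of 381 regions (21%) were closed themselves, and where it was not closed, 296 of 14052 (2.11%). Of the 376, 1 had an opened region as its nearest neighbour. With gaps of up to 10000 bp, 144 closed regions (38.3%) fell into 59 groups of 2 or more, 17 of which held 3 or more, and 232 stood alone. The largest groups were the 5 at znf-782 and the 5 at the lpr genes, followed by groups of 4 that included those at lin-42, tps-2 and col-144 to col-10. Adjacent regions can share a regulatory element or a gene body, so members of a group are not independent observations.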

How the data were processed

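ATAC-seq counts were analysed for 16 libraries (4 strains, 4 replicates each). The authors deposited raw read counts per merged peak. Per their methods, reads were trimmed with fastp and aligned to WBcel235 with Bowtie2, reads of low mapping quality or on mitochondrial DNA were removed, peaks were called with MACS2 and merged across samples with HOMER, and featureCounts (2.0.1 in the file headers) counted reads that were not duplicates. Read shifting was applied at peak calling only. Merged peaks can join nearby elements into 1 long region.

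Here CPM was made from library totals, and the regions were chosen by the rule given in the report. The members and the gene lists were chosen with earlier results of these data known. Each contrast was fitted on all 29131 regions and 16 libraries with edgeR 4.0.16 (quasi-likelihood test, TMM, Benjamini-Hochberg adjustment, R 4.3.3) with 2 factors of unwanted variation. These were recomputed after the RUVg method from 13897 control regions (47.7%) with an adjusted p of at least 0.75 in the RPOA-2 contrast. filterByExpr removed 0 regions, and the biological coefficient of variation was 8.14%. DESeq2 1.42.0 was an alternative, and others were TMM or medians in the rule, other thresholds, library totals, size factors, no factors, a replicate block and leaving out libraries. The library totals limit the precision at low counts.

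Regions were assigned to the gene with the nearest transcript 5′ end (Ensembl release of WBcel235: protein-coding, tRNA, snoRNA, snRNA, rRNA and miRNA genes). Symbols of tRNA genes and let-7 came from RefSeq by equal coordinates. Named were the 12 closed regions with the lowest mean log2 ratio, up to 3 per list, regions called in a contrast that the rule did not use and those around the threshold. Those named beyond this rule (nurf-1, tps-2, mthf-1, metr-1, ahcy-1, pck-2 and further members of the lists) were chosen after their values were seen. No sequence or motif was analysed here.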

Additional observations from a re-analysis of the deposited data

Results flagged for a closer look

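Among 52 groups of 4 libraries tested (the 12 named regions and the summed level of the closed regions, in each strain), 4 had a library whose gap to the nearest other exceeded Dixon's 95% critical share of the range of the group, and chance gives about 5% of groups. At the region upstream of col-145, replicate 4 of depleted RRB-1 larvae had 24.8 CPM, above the other 3 and above 2 undepleted libraries. At nlp-33, replicate 2 of depleted RPOA-2 larvae had 51.5 CPM, below the others of its group, and replicate 3 of depleted RRB-1 larvae had 64.3 CPM, above the others of its group. Summed over all closed regions, replicate 1 of undepleted rrb-1::degron larvae had 22886 CPM, below the other 3 of its group and above every depleted library.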

How the results depend on the processing

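The number of closed regions depended on the rule. It was 336 with TMM-scaled CPM, 422 with group medians (272 shared with the 376), 100 at a threshold of -0.3, 661 with a minimum of 10 CPM and 930 with none. Leaving out a replicate number in all strains gave 332 to 548, and leaving out 1 library (chosen after seeing the data) 308 to 489. The number called lower in the RPOA-2 pair, 79, was 14 without factors (of 15 over all regions). It was 14 to 88 when 1 library was left out (lowest without replicate 2 of depleted RPOA-2). Over all regions the calls then ran from 17 to 166. In the RRB-1 pair, 124 became 20 without factors (of 25 over all regions). It became 41 to 124 when 1 library was left out (lowest without the same library), of 59 to 238 over all regions. The call between depleted strains was 3 with DESeq2, 0 without factors and 0 to 2 when 1 library was left out. The matching counts over all regions were 48, 2 and 3 to 129. The counts of 0 between undepleted strains and between effects were 0 in all alternatives run. The cause of these shifts was not tested.

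Replicate numbers were not used as pairs in the main fit, since the labels do not tie them to batches. Of 24 same-numbered pairs, 13 had deviations that correlated over 0.1 (range -0.0186 to 0.457). Of 16 libraries, 12 correlated best with their own number, so a part shared by equal numbers remains possible. With the replicate block in place of the factors, 59 closed regions were called lower in the RPOA-2 pair and 81 in the RRB-1 pair. Over all regions these calls numbered 94 and 112. The 1 closed region called between depleted strains with the block was not his-62. For the 12 lowest regions and the 7 list counts, 546 alternative values were classed as unchanged, 19 fell short of the threshold, 1 passed it and 0 reversed. The 546 include list counts, which have no direction or call (heterochronic 24 became 19 with TMM-scaled CPM). They also include mir-48 in the RRB-1 pair, not called in the main fit, where -0.39 became -0.05 without replicate 2 of depleted RPOA-2. With genes of every biotype (chosen after seeing the data), 95 closed regions had another nearest gene. Motif shares and their window sizes were not run. Depth limits values most in the library of 2337415 reads.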
